A study of Homo sapiens with 6 samples.

Results

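The 10 genes described here are the poly(A)-binding protein genes PABPC1, PABPC4 and PABPN1, the RNA export helicase genes DDX39A and DDX39B, the mRNA export genes ALYREF and NXF1, the exportin genes XPO1 and XPO4, and RAN. They were chosen by gene symbol, with earlier results of these data known. Each was matched to 1 entry among the 59151 genes of the deposited table. The data were FPKM values (fragments scaled to the library total and the gene length) from ribosomal RNA-depleted total RNA of forebrain neuron progenitor cells at day 26, differentiated from the established human embryonic stem cell line H9. Cells labelled circRTN4 shRNA1 and circRTN4 shRNA2 carried 2 different hairpins against circRTN4(2,3), the circular RNA made of exons 2 and 3 of RTN4 by its name, and cells labelled scramble carried a control hairpin. Each of the 3 groups had 2 libraries, and all were of the same unedited line. The series concerned the export of adenosine-rich circular RNAs by PABPC1, and these libraries were made to study the function of circRTN4(2,3); PABPC1 itself was not targeted. The labels do not say how the hairpins were delivered, for how long, or whether the replicates were separate cultures. The p-values therefore stand for the spread among these libraries alone, which may be technical.

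Poly(A)-binding proteins coat the adenosine tails of messenger RNAs: PABPN1 acts mainly in the nucleus, where the tail is made, and PABPC1 and PABPC4 mainly in the cytoplasm, where they act in translation and tail removal. Linear messenger RNA leaves the nucleus through the TREX complex, whose helicase (DDX39B, or its close relative DDX39A) and adaptor ALYREF hand the RNA to the receptor NXF1. Circular RNAs have no tail and no cap, and their export has been tied to DDX39A and DDX39B according to circle length, and to the exportin XPO4, which works with the GTPase RAN. XPO1 is the main exportin of proteins with a nuclear export signal.

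The totals behind the FPKM values were 77187298 to 83629504 reads in 5 libraries and 46634855 reads in scramble replicate 1. The libraries of scramble were less alike than those of either hairpin, with a median SD between replicates over the tested genes of 0.0355 for shRNA1, 0.0452 for shRNA2 and 0.109 for scramble on the log2 scale. Host gene RTN4, whose values mix linear and circular RNA, had 34.2 and 34.7 FPKM with shRNA1, 31.2 and 31.3 FPKM with shRNA2, and 40.3 and 38.5 FPKM with scramble; the level of the circle itself was not measured. All 8 neural progenitor and all 5 forebrain markers were above the filter of a mean of 1 FPKM. The summed forebrain markers were 84.7 to 92.3 FPKM over the 6 libraries. The summed progenitor markers were 174.88 to 174.93 FPKM with shRNA1, 184 to 188 with shRNA2 and 186 to 201 with scramble. Single ones went both ways with shRNA2: NES had 56.3 and 56.1 FPKM against 48.6 and 51.4 with scramble, and VIM 43.2 and 42.8 against 54.6 and 60.3. Of 7 newborn neuron markers 5 were above the filter, and their sum was 342 to 347 FPKM with shRNA1, 294.6 to 295.4 with shRNA2 and 327 to 333 with scramble. The summed choroid plexus markers (2 of 5 above the filter) were 1.83 to 2.17 FPKM with shRNA1, 1.25 to 1.48 with shRNA2 and 7.78 to 8.35 with scramble. That difference was mainly TTR, at 0.497 and 0.785 FPKM with shRNA1, 0.0577 and 0.0632 with shRNA2, and 6.03 and 6.63 with scramble. KCNJ13 had 0.98 to 1.27 FPKM over the 6 libraries, with shRNA1 overlapping scramble and shRNA2 below it. Below the filter, CLIC6 and FOLR1 were lower with both hairpins, and AQP1 with shRNA2 only. The summed mesenchymal markers (1 of 5) were 0.916 to 1.08, 0.312 to 0.492 and 4.82 to 5.43 FPKM with shRNA1, shRNA2 and scramble. The summed pluripotency markers (2 of 6, DPPA4 and LIN28A) were 5.97 to 6.06, 11.8 to 11.9 and 4.99 to 5.01 FPKM. The other 4 were low in every library and highest with shRNA2: TDGF1 had 0.186 and 0.241 FPKM with shRNA2 and at most 0.0141 FPKM in the other libraries, NANOG 0.0687 and 0.0417 against at most 0.0113, POU5F1 0.0498 and 0.0370 against at most 0.0101, and ZFP42 0.0259 and 0.0317 against at most 0.0220. None of the 4 endothelial or 4 microglia markers was above the filter, with sums of 0.302 to 0.487 and 0.228 to 0.323 FPKM, and no marker of any list was at 0 in all libraries. The part of these marker differences in the results below was not tested, and in bulk RNA fewer cells of a type and less RNA per cell cannot be told apart.

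All 10 genes were expressed above the filter in these cells. PABPC1 had the highest level per length, at 37.2 to 46.1 FPKM over the 6 libraries, followed by RAN at 25.2 to 31.4 FPKM. XPO1 (15.9 to 18.8 FPKM) and ALYREF (13.4 to 18.3 FPKM) came next and overlapped each other. PABPN1 (6.72 to 7.14 FPKM) and PABPC4 (5.76 to 7.39 FPKM) overlapped as well, and NXF1 lay below both at 4.27 to 5.07 FPKM. At the low end DDX39B (3.36 to 3.84 FPKM) overlapped DDX39A (2.97 to 4.0 FPKM), which overlapped XPO4 (2.96 to 3.29 FPKM). Each of the other neighbours in this order was separated in all 6 libraries. The highest mean was 12.9 times the lowest, whereas within each of the 10 genes the highest library was under 1.5 times the lowest. Among the 3 poly(A)-binding protein genes, PABPC1 made up 75.3% of the summed mean level in the deposited values. That share leaves out the read-through gene BCL2L2-PABPN1 (9.37 to 9.87 FPKM) and depends on the gene lengths used.

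**Figure D1:**
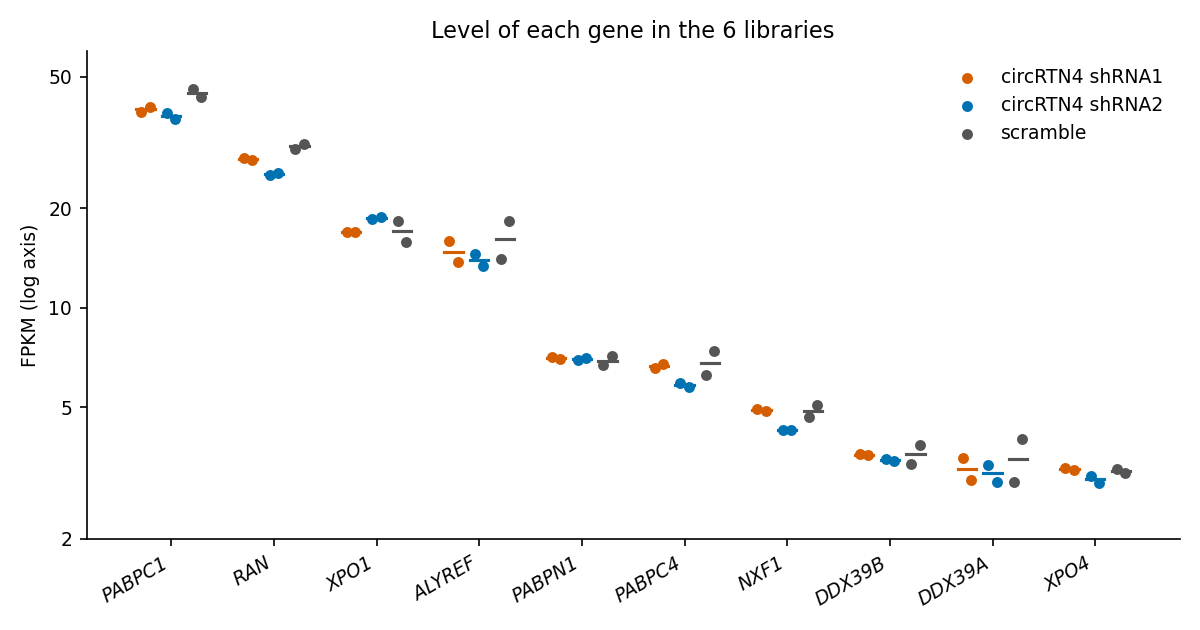
FPKM (log axis) of the 10 genes in each of the 6 libraries, ordered by mean level, with shRNA1, shRNA2 and scramble from left to right for every gene; a point is a library and a bar the mean of its group. PABPC1 is at the top with 37.2 to 46.1 FPKM and XPO4 at the bottom with 2.96 to 3.29 FPKM, and scramble points are the farthest apart for XPO1, ALYREF, PABPC4 and DDX39A.

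The order at the low end depended on the gene length used. The length behind each FPKM value was recovered as the smallest one that turned all 6 values of a gene into whole hundredths of a read. It was 1 to 1.04 times the exon union of the GENCODE v29 annotation for 7 of the genes, and 1.28 times for PABPN1, 1.59 times for XPO4 and 3.03 times for DDX39B (21202 against 7007 bases). The true length may be a multiple of the recovered one, and the authors' annotation may not have been GENCODE. Levels on GENCODE lengths divide the same reads by the GENCODE length. Whether some of those reads lay outside the GENCODE exons was not tested, and such reads would make these levels too high. With the GENCODE lengths DDX39B had 10.2 to 11.6 FPKM, DDX39A 2.99 to 4.02 FPKM, XPO4 4.72 to 5.24 FPKM and PABPN1 8.63 to 9.17 FPKM. DDX39B thus lay above DDX39A in all 6 libraries on that scale, while the deposited values of these paralogs overlapped. In reads scaled to the library total alone (RPM), DDX39B had 71.3 to 81.5 and DDX39A 11.5 to 15.4. The length cancels in every comparison between groups, apart from the effect of the added 1 FPKM.

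**Figure D2:**
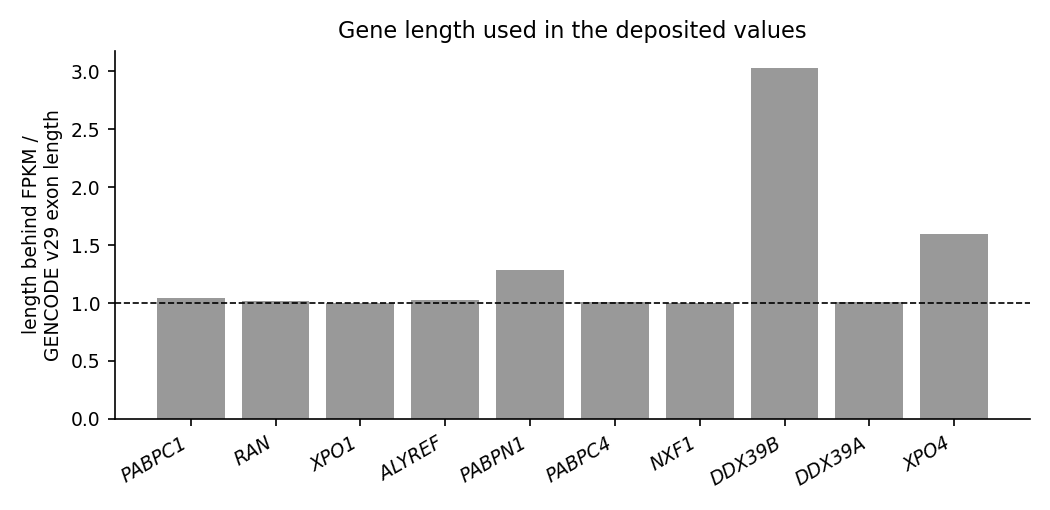
Length behind the deposited FPKM divided by the GENCODE v29 exon union, a bar for each of the 10 genes, with a dashed line where both lengths are equal. DDX39B stands out at 3.03, followed by XPO4 at 1.59 and PABPN1 at 1.28, and the other 7 genes lie at 1 to 1.04.

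Read numbers behind the 10 genes were 535.25 to 18190.08 per library, so that counting error alone was 0.741% to 4.32% of a value. Of the 60 read numbers 51 were not whole. NXF1, whose recovered length of 6194 bases equalled its annotation, had 2520.17 and 2378 reads with shRNA1, 2216.33 and 2114.83 with shRNA2, and 1351 and 2424 with scramble, so fractions of reads had been counted. Reads shared with other genes may therefore be divided in these values. PABPC3, a near-identical copy of PABPC1 without introns, had 0.269 and 0.252 FPKM with shRNA1, 0.210 and 0.281 with shRNA2, and 0.323 and 0.398 with scramble, far below PABPC1. The pseudogene entries PABPC1P2 and RANP1 had at most 0.00159 and 0.0329 FPKM. The read-through genes stood at levels like their partners, with BCL2L2-PABPN1 at 9.37 to 9.87 FPKM and ATP6V1G2-DDX39B at 3.10 to 3.70 FPKM, so the values of PABPN1 and DDX39B are uncertain to that extent.

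PABPC1, which lies at chr8:100702916-100722088 of GRCh38.p14 (as all positions here, from RefSeq), is the main cytoplasmic poly(A)-binding protein and the export factor named by the study. It had 39.2 and 40.6 FPKM with shRNA1, 38.9 and 37.2 FPKM with shRNA2, and 46.1 and 43.5 FPKM with scramble. Both libraries of each hairpin were below both scramble libraries. On the scale of log2(FPKM + 1), the mean of both hairpins was 0.20 below scramble (log2 fold change -0.20 ± 0.050 SE, 95% interval -0.32 to -0.07, n = 4 and 2 libraries), which did not pass limma's test after Benjamini-Hochberg adjustment over 18162 genes (unadjusted p = 0.0109, adjusted p = 0.225). The difference was -0.16 for shRNA1 (adjusted p = 0.521) and -0.23 for shRNA2 (adjusted p = 0.149) in limma's fit. The hairpins share the scramble libraries, so these values are not independent of each other. With quantile normalization the knockdown value was -0.03 for PABPC1 (adjusted p = 0.936), and with scaling by median of ratios it was -0.15.

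PABPC4 (chr1:39560816-39576790), a second cytoplasmic poly(A)-binding protein first described in activated T cells, had 6.57 and 6.77 FPKM with shRNA1, 5.91 and 5.76 FPKM with shRNA2, and 6.27 and 7.39 FPKM with scramble. The shRNA2 libraries were the lowest of the 6, and the shRNA1 libraries lay between the scramble libraries. Its log2 fold change was -0.03 for shRNA1 (adjusted p = 0.977 by limma) and -0.19 for shRNA2 (95% interval -0.40 to 0.01, adjusted p = 0.281). PABPN1 (chr14:23321457-23326163), the nuclear poly(A)-binding protein, had 7.12 and 7.0 FPKM with shRNA1, 6.97 and 7.05 FPKM with shRNA2, and 6.72 and 7.14 FPKM with scramble. Its groups overlapped throughout, and the interval of its knockdown difference was -0.09 to 0.13 (adjusted p = 0.894 by limma).

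Of the helicases, DDX39A (chr19:14408798-14419383) had 3.50 and 3.01 FPKM with shRNA1, 3.34 and 2.98 FPKM with shRNA2, and 2.97 and 4.0 FPKM with scramble. DDX39B (chr6:31530226-31542003, also known as UAP56) had 3.60 and 3.59 FPKM with shRNA1, 3.49 and 3.45 FPKM with shRNA2, and 3.36 and 3.84 FPKM with scramble. For both genes the scramble libraries enclosed the hairpin libraries. The knockdown difference was -0.08 for DDX39A (95% interval -0.38 to 0.21, adjusted p = 0.803 by limma) and -0.02 for DDX39B (-0.17 to 0.13, adjusted p = 0.921). True differences of any size within these intervals remain compatible with these libraries.

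ALYREF (chr17:81887835-81891587), the adaptor that binds RNA and recruits NXF1, had 15.9 and 13.7 FPKM with shRNA1, 14.5 and 13.4 FPKM with shRNA2, and 14.1 and 18.3 FPKM with scramble. Scramble replicate 2 was the highest library and scramble replicate 1 lay within the hairpin values, giving a knockdown difference of -0.15 (95% interval -0.46 to 0.15, adjusted p = 0.641 by limma). NXF1 (chr11:62792130-62805440), the receptor that carries mRNA through the pore, had 4.94 and 4.89 FPKM with shRNA1, 4.28 and 4.27 FPKM with shRNA2, and 4.68 and 5.07 FPKM with scramble. Both shRNA2 libraries were below the other 4, and both shRNA1 libraries lay between the scramble libraries. The difference was -0.15 for shRNA2 against scramble (95% interval -0.30 to -0.01, adjusted p = 0.234) and -0.17 for shRNA2 against shRNA1 (-0.31 to -0.02, adjusted p = 0.268), and neither passed limma's test.

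XPO1 (chr2:61477849-61538612), the exportin also called CRM1, was the only one of the 10 with a higher mean for shRNA2 than for scramble in non-overlapping libraries. It had 16.9 and 17.0 FPKM with shRNA1, 18.5 and 18.8 FPKM with shRNA2, and 18.3 and 15.9 FPKM with scramble. The shRNA1 libraries lay between the scramble libraries. The log2 fold change was 0.13 for shRNA2 against scramble (95% interval -0.07 to 0.32, adjusted p = 0.421 by limma) and 0.13 for shRNA2 against shRNA1 (-0.06 to 0.32, adjusted p = 0.442). XPO4 (chr13:20777329-20902774), the exportin linked to circular RNA export, had 3.29 and 3.23 FPKM with shRNA1, 3.11 and 2.96 FPKM with shRNA2, and 3.26 and 3.16 FPKM with scramble. Its shRNA2 libraries were the lowest and its other 4 libraries overlapped. Its knockdown difference was -0.02 with an interval of -0.14 to 0.10 (adjusted p = 0.881 by limma).

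RAN (chr12:130872066-130877678), the GTPase whose GTP-bound form loads exportins in the nucleus, had 28.4 and 28.1 FPKM with shRNA1, 25.2 and 25.6 FPKM with shRNA2, and 30.3 and 31.4 FPKM with scramble. The 3 groups did not overlap, with shRNA2 lowest and scramble highest. The knockdown difference was -0.20 ± 0.042 (SE; 95% interval -0.30 to -0.09, unadjusted p = 0.0046, adjusted p = 0.177 by limma). It was -0.12 for shRNA1 (adjusted p = 0.546) and -0.27 ± 0.048 for shRNA2 (adjusted p = 0.0884). With only the 9762 protein-coding genes in the fit, of which 4.31% were called for shRNA2, the adjusted p of RAN for shRNA2 was 0.0362 in limma's test. Quantile normalization brought the shRNA2 value of RAN to -0.07 (adjusted p = 0.644).

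**Figure D3:**
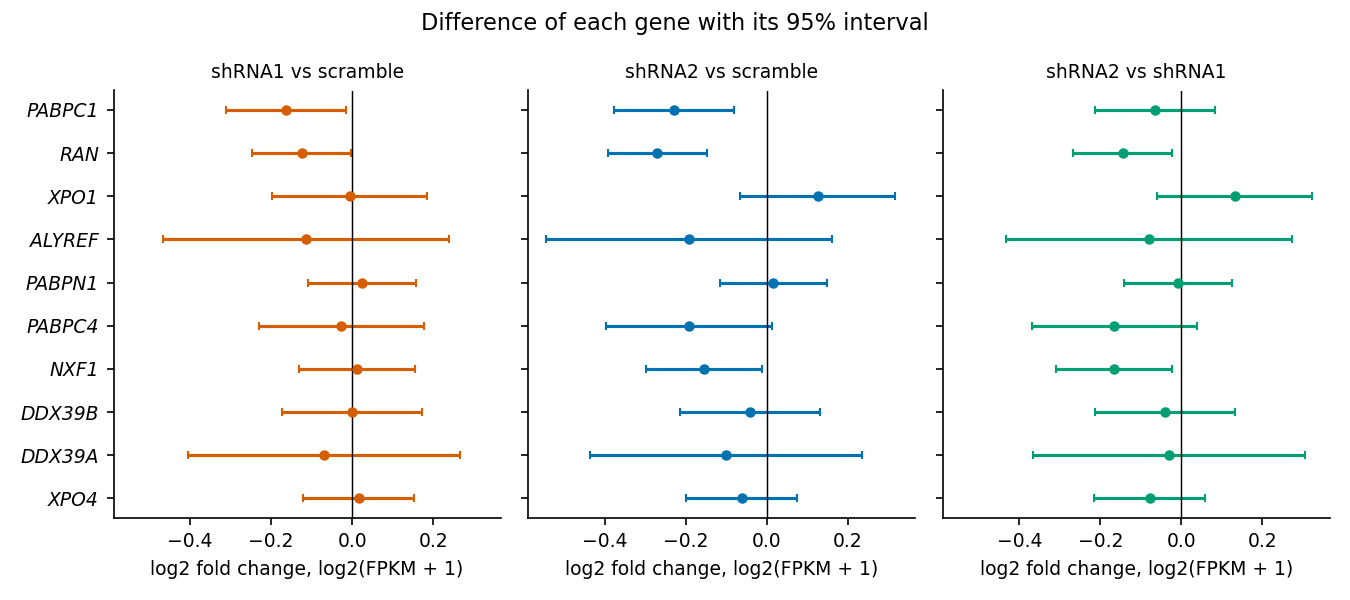
Log2 fold change of each of the 10 genes (points) with its 95% interval (bars), for shRNA1 and shRNA2 against scramble and for shRNA2 against shRNA1. PABPC1 and RAN lie below 0 with intervals that leave out 0 in both panels against scramble, at -0.23 and -0.27 with shRNA2, and the intervals of ALYREF and DDX39A are the widest; none passed adjustment over all genes.

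None of the 10 genes was called at an adjusted p under 0.05 in any of the 4 comparisons by limma. In the fits, a value or call for both hairpins is that of the mean of the 2 hairpin groups against scramble, not a call with each hairpin. Over all 18162 genes, 15 (0.0826%) were called for this mean, 6 (0.033%) for shRNA1 and 114 (0.628%) for shRNA2. For shRNA2 against shRNA1 0 (0%) were called, where 2929 genes (16.1%) had an unadjusted p under 0.05 by limma. With so few calls the 0 of 10 is near the background. At an unadjusted p under 0.05 stood 2 of the 10 for both hairpins (PABPC1 and RAN), against 13.8% of all genes, the same 2 for shRNA1, against 8.97%, and 3 for shRNA2 (PABPC1, NXF1 and RAN), against 19.2%. Between the hairpins these were NXF1 and RAN. Libraries did not overlap in 2 of the 10 genes for both hairpins against scramble, in 2 for shRNA1, in 6 for shRNA2 and in 7 for shRNA2 against shRNA1. Over all genes those shares were 18.5%, 34.7%, 47.6% and 63.3%. By direction, the hairpin libraries lay below all scramble libraries in 2 of the 10 genes for both hairpins (12.6% of all genes) and 2 for shRNA1 (18.9%), both times PABPC1 and RAN, and above them in 0 (5.87% and 15.8% of all genes). With shRNA2 the lower ones were 5 (34.4%), namely PABPC1, PABPC4, NXF1, XPO4 and RAN, and XPO1 was the 1 higher one (13.3%). Between the hairpins, shRNA2 was lower in those 5 and in DDX39B, 6 in all (46.6%), and higher in 1, again XPO1 (16.6%). The median difference of the 10 genes was -0.08 for both hairpins, -0.02 for shRNA1, -0.13 for shRNA2 and -0.07 between hairpins, beside -0.03, -0.003, -0.06 and -0.06 for all tested genes and -0.05, -0.01, -0.09 and -0.08 for protein-coding genes alone. Between the hairpins the 10 genes were thus not lower than protein-coding genes in general. The largest difference among the 10 was exceeded in size by 15.3%, 20.9%, 14.2% and 30.2% of all tested genes in the same order.

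The scramble libraries decided several of these calls. Without scramble replicate 1, the shallower library, 507 genes were called for both hairpins and 2418 for shRNA2. Calls were thus frequent among the 18162 tested genes, so a call in that fit does not by itself set a gene apart. RAN then stood at -0.22 for both hairpins. For shRNA2, PABPC4 stood at -0.30, NXF1 at -0.20, XPO1 at 0.22 and RAN at -0.29. Without scramble replicate 2, RAN stood at -0.25 for shRNA2. PABPC4 then stood at -0.089, NXF1 at -0.11 and XPO1 at 0.028 for shRNA2, so the size of these differences depended on which scramble library was used. PABPC1 stood at -0.19 for shRNA2 without scramble replicate 1 and at -0.27 without scramble replicate 2. Between the hairpins, 978 and 1029 genes were called without scramble replicate 1 or 2, and none of the 10 was among them. Without either shRNA1 library 1 gene was called for both hairpins and 1 for shRNA2, and without either shRNA2 library 0 in both, again none of the 10. In the fits without a scramble library the remaining one was assumed to vary as the hairpin groups do.

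Ratios between related genes within a library do not depend on the scaling between libraries. PABPC4 over PABPC1 was 0.168 and 0.167 with shRNA1, 0.152 and 0.155 with shRNA2, and 0.136 and 0.170 with scramble. The scramble libraries enclosed all others. DDX39A over DDX39B was 0.972 and 0.837 with shRNA1, 0.958 and 0.864 with shRNA2, and 0.884 and 1.04 with scramble, with overlap throughout. On GENCODE lengths that ratio was 0.278 to 0.346. XPO4 over XPO1 was 0.194 and 0.190 with shRNA1, 0.168 and 0.157 with shRNA2, and 0.178 and 0.199 with scramble. Here both shRNA2 libraries were below the other 4. On GENCODE lengths this ratio was 0.2503 to 0.317 over the 6 libraries, since the length behind XPO4 was 1.59 times its annotation. With 2 libraries in a group no permutation test can pass 0.05, so the ratios are given without a test.

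**Figure D4:**
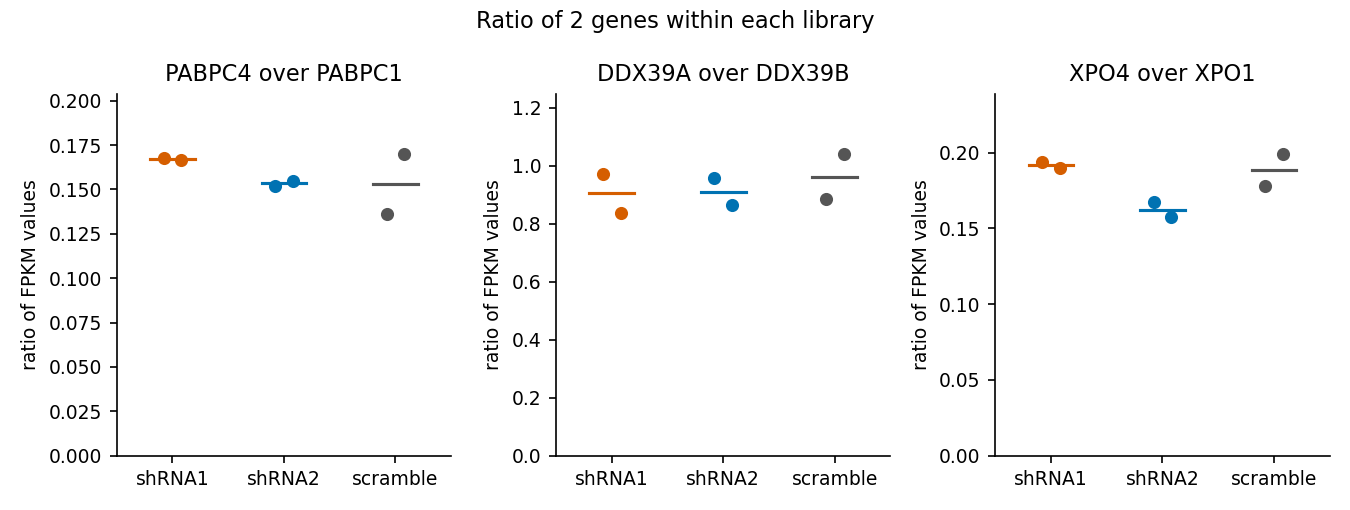
Ratio of deposited FPKM within each library for PABPC4 over PABPC1, DDX39A over DDX39B and XPO4 over XPO1, a point for each library and a bar for the mean of each group, with shRNA1, shRNA2 and scramble from left to right. The shRNA2 points of XPO4 over XPO1 (0.168 and 0.157) are the lowest of their panel, and the scramble points enclose all others for PABPC4 over PABPC1.

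The pathway around the 10 genes was followed in 12 lists with 175 other genes, of which 157 passed the filter. None was called in any of the 4 comparisons by limma. For both hairpins, 26 of 157 (16.6%) had an unadjusted p under 0.05 by limma, against 13.8% of all genes. It was 11 of 157 for shRNA1, against 8.97%, and 32 (20.4%) for shRNA2, against 19.2%. The median differences were -0.07 for both hairpins, -0.05 for shRNA1 and -0.09 for shRNA2. Values were below 0 for 143 of the 157 genes with both hairpins, 122 with shRNA1 and 137 with shRNA2, beside 63.1%, 51.1% and 67.7% of all tested genes, which include noncoding ones. The medians of protein-coding genes alone were -0.05, -0.01 and -0.09. The lists were near them for shRNA2 and lower for both hairpins and for shRNA1. The share of protein-coding genes below 0 was not counted. By median-of-ratios scaling the medians of all tested genes were -0.002, -0.001 and -0.0006, beside -0.03, -0.003 and -0.06 without it. A count of signs can thus depend on the scaling for both hairpins and shRNA2, while for shRNA1 the scaling moved the median little. All 157 genes are set against the same scramble libraries, so these are not independent counts.

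Among export genes, the 15 TREX genes above the filter had a median knockdown difference of -0.10, the 12 genes of mRNA export at the pore -0.08, and the 27 nuclear pore subunits -0.07. GLE1, which activates the helicase DDX19 at the cytoplasmic face of the pore, was the pathway gene nearest to a call, with 4.04 and 4.11 FPKM with shRNA1, 3.63 and 3.60 FPKM with shRNA2, and 4.76 and 4.76 FPKM with scramble. Its groups did not overlap, and its difference was -0.25 for both hairpins (adjusted p = 0.133 by limma) and -0.32 for shRNA2 (adjusted p = 0.0729). ENY2, a subunit of the TREX-2 complex, stood at -0.11 for both hairpins. In the TREX list the adaptor SRSF3 had 20.7 and 20.8 FPKM with shRNA1, 19.8 and 20.2 with shRNA2, and 23.9 and 22.6 with scramble, and the TREX subunit THOC3 stood at -0.20 (adjusted p = 0.215 and 0.232 for the knockdown in limma). The pore scaffold subunits NUP93 and NUP188 stood at -0.16 and -0.19 (adjusted p = 0.310 and 0.311 by limma).

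Among transport receptors and the Ran cycle, the 5 other exportins had a median knockdown difference of -0.06, the 17 importins -0.09 and the 6 Ran regulators -0.11. XPO5, the exportin of microRNA precursors, and CSE1L, which returns importin alpha to the cytoplasm and has been tied to circular RNA export, both stood at -0.10. KPNA6, an importin alpha, had 7.49 and 7.67 FPKM with shRNA1, 6.63 and 6.55 FPKM with shRNA2, and 7.84 and 8.13 FPKM with scramble. Its shRNA2 libraries were the lowest, at -0.24 against scramble (adjusted p = 0.109 by limma). IPO5, an importin beta, stood at -0.12 for both hairpins. RANBP1, which helps RAN hydrolyse GTP, had 6.95 and 7.39 FPKM with shRNA1, 7.01 and 6.66 FPKM with shRNA2, and 7.55 and 8.30 FPKM with scramble, with a knockdown difference of -0.16 (adjusted p = 0.342). RCC1, the nucleotide exchange factor of RAN, stood at -0.08.

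Among poly(A) tail genes, the 19 partners of PABPC1 had a median knockdown difference of -0.07, the 18 tail synthesis genes -0.05 and the 13 tail removal genes -0.07. GSPT1, the translation termination factor that binds PABPC1, had 10.4 and 10.2 FPKM with shRNA1, 9.35 and 9.56 FPKM with shRNA2, and 12.0 and 10.9 FPKM with scramble (knockdown -0.19, adjusted p = 0.240 by limma). EIF4B, a translation initiation factor, stood at -0.15, the cleavage factors CPSF7 and CPSF3 at -0.15 and -0.12, and the CCR4-NOT subunits CNOT11 and CNOT8 at -0.19 and -0.14. Other poly(A)-binding protein genes were few, with 3 of 8 above the filter and a median of 0.02. PABPC1L, a relative known from oocytes, had 1.08 and 1.31 FPKM with shRNA1, 1.40 and 1.39 FPKM with shRNA2, and 0.967 and 1.17 FPKM with scramble (knockdown 0.15, adjusted p = 0.470 by limma). ZC3H14, a zinc finger protein that binds adenosine tails, stood at -0.03.

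The 8 genes of m6A factors and IGF2BP proteins had a median of -0.05 for both hairpins and -0.04 for each hairpin alone. Of these, 8 were below 0 for both hairpins (63.1% of all tested genes), 8 for shRNA1 (51.1%) and 5 for shRNA2 (67.7%). IGF2BP1, an RNA-binding protein tied to circular RNA export, had 22.1 and 21.9 FPKM with shRNA1, 25.3 and 24.9 FPKM with shRNA2, and 24.5 and 25.6 FPKM with scramble. Its shRNA1 libraries were the lowest and its shRNA2 libraries lay between the scramble libraries, the reverse of NXF1. The difference was -0.18 for shRNA1 (adjusted p = 0.421 by limma), 0.003 for shRNA2 and 0.18 for shRNA2 against shRNA1 (adjusted p = 0.210). IGF2BP3 stood at -0.07 for both hairpins. The 14 genes of the exon junction and cap-binding complexes, which mark spliced RNA and its cap for export, had a median of -0.11, with RBM8A at -0.15 and NCBP1 at -0.13.

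**Figure D5:**
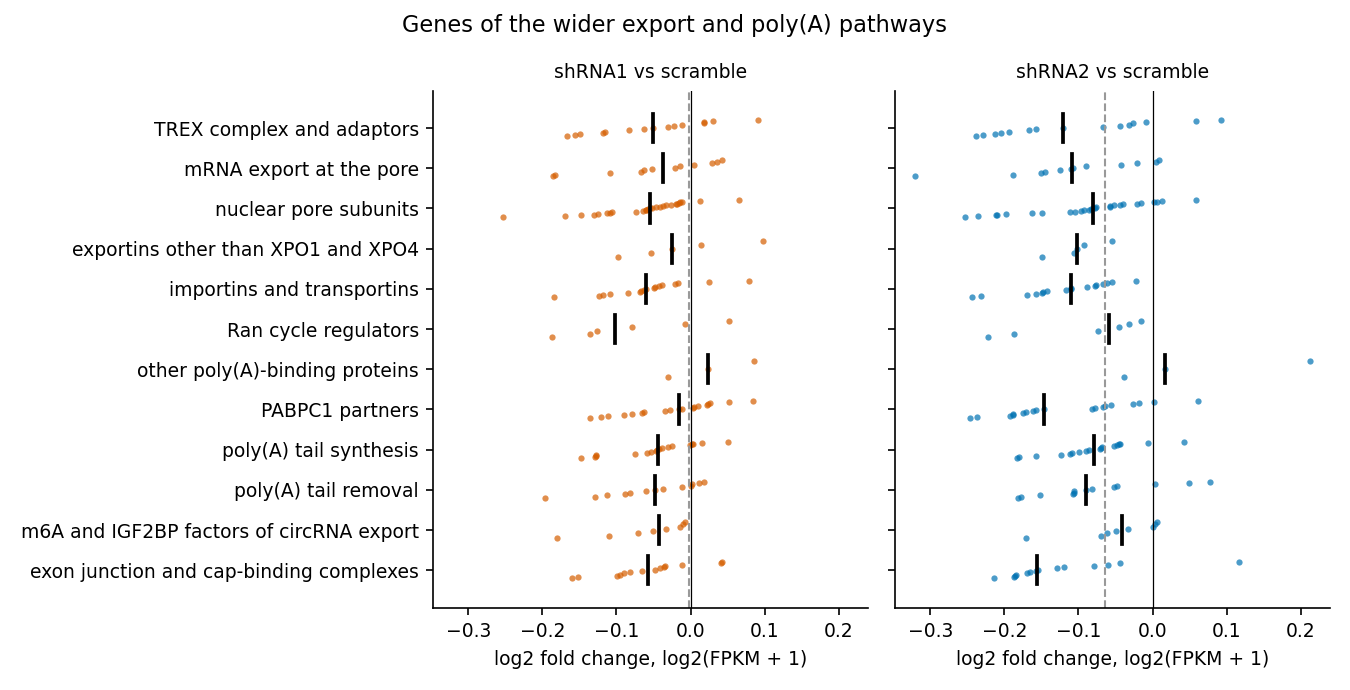
Log2 fold change of each gene above the filter in the 12 pathway lists, for shRNA1 (left) and shRNA2 (right) against scramble; a point is a gene, a black bar the median of its list and the dashed line the median of all tested genes. List medians run from -0.10 to 0.02 with shRNA1 and from -0.16 to 0.02 with shRNA2, where GLE1 is the lowest point at -0.32; none of the genes was called.

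The 5 protein-coding genes whose centred log2 values over the 6 libraries were nearest to those of PABPC1 were ZBTB18, TIGD2, PRPS2, FCHO2 and HEBP2, with root mean square differences of 0.0190 to 0.0252, where the median of 9762 genes was 0.109. Of the other 9 genes RAN was the closest to PABPC1 (0.0585) and XPO1 the farthest (0.151). Nearest to XPO4 were NCOA2, SDHC, RSPRY1, RNF103 and SNRPA1, at 0.00826 to 0.0141, where the median was 0.0806. These likenesses rest on 6 libraries of unequal depth and are a description only.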

How the data were processed

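Gene expression was measured in 6 ribosomal RNA-depleted libraries in 3 groups of 2. Per the file headers, the authors deposited 1 FPKM value for each gene symbol in each library. Per the submitters' processing notes the tools were Trimmomatic 0.39, HISAT2 2.1.0, SAMtools 1.9 and featureCounts 2.0.1, on GRCh38 (hg38). How reads with several matches were treated, the strand setting and the annotation are not given in the sources, so antisense and overlapping genes cannot be told apart. Among the symbols 29 were written as dates.

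Library totals and gene lengths were recovered from the steps of the FPKM values (tolerance 0.005 hundredths of a read); 1 read on 1 kb is worth 0.012 to 0.0214 FPKM and 3 reads 0.0359 to 0.0643 FPKM, which covers counting error only. Because fractions of reads were counted, no count test was run. limma 3.58.1 (R 4.3.3) was fitted to log2(FPKM + 1) of 18162 genes whose mean reached 1 FPKM, over all 3 groups with a mean-variance trend. Benjamini-Hochberg adjustment ran over all of these genes and calls were made at 0.05; the fit was tested on simulated data. Fold changes on this scale understate those of low genes. Comparisons were the mean of both hairpin groups, shRNA1 and shRNA2 against scramble, and shRNA2 against shRNA1. Plots used matplotlib 3.10.9, and tables Python 3.11.15 with pandas 2.3.3 and numpy 2.4.6.

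The 10 genes and the pathway lists were chosen with earlier results of these data known. All 10 genes were named, with up to 2 per list by the smallest unadjusted p for both hairpins, and the 5 nearest profiles of PABPC1 and XPO4. Alternatives were a pseudocount of 0.1, no filter, median-of-ratios scaling, quantile normalization, protein-coding genes only, a replicate block, array weights, leaving out each library, and, added after seeing the data, summing read-through genes with their partners.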

Additional observations from a re-analysis of the deposited data

Results flagged for a closer look

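In NXF1, XPO1 and XPO4, every library of one hairpin lay on one side of the scramble mean and every library of the other hairpin on the opposite side. With shRNA1 the distance from scramble was small, at 0.011 for NXF1, -0.006 for XPO1 and 0.016 for XPO4 (adjusted p = 0.989, 0.994 and 0.978 by limma). Its libraries lay between the scramble libraries for NXF1 and XPO1 and overlapped them for XPO4. With shRNA2 the values were -0.15, 0.13 and -0.06. For NXF1, shRNA2 minus shRNA1 was -0.17 on the log2 scale (adjusted p = 0.268 by limma), with both shRNA2 libraries below both shRNA1 libraries. The same difference was 0.13 for XPO1 (adjusted p = 0.442), higher with shRNA2, and -0.078 for XPO4 (adjusted p = 0.520), lower with shRNA2. By median-of-ratios scaling and quantile normalization NXF1 stood at -0.097 and -0.10, XPO1 at 0.21 and 0.24, and XPO4 at -0.014 and -0.030. The median of shRNA2 minus shRNA1 over protein-coding genes was -0.082, so the XPO4 value was no larger than that general difference. None of the 3 passed limma's test of the difference itself in the main fit. The shared spread of that fit includes the scramble libraries, which were less alike than the hairpin libraries. With array weights, where many genes were called, NXF1 alone of the 3 passed (adjusted p = 0.0372 by limma). Over all tested genes 63.3% had non-overlapping hairpin groups. How many of all genes had hairpins on opposite sides of the scramble mean was not counted, so the 3 genes have no background to be set against.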

How the results depend on the processing

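Of 528 values of the 10 genes under alternatives, 479 kept their direction and side of the threshold, 40 changed sign and 9 became calls; no value that changed sign was over 0.0964 in size. By median-of-ratios scaling and quantile normalization the knockdown value was 0.0144 and 0.00811 for DDX39B and 0.0103 and 0.00246 for XPO4. For shRNA2 DDX39B was 0.0268 and 0.0146 and XPO4 0.0031 by median of ratios; for shRNA1 XPO1 was 0.0522 by quantiles, and DDX39B -0.0157 with the read-through gene summed. Between the hairpins they gave 0.0169 and 0.00621 for PABPC1, 0.0654 and 0.0726 for PABPN1, 0.0331 and 0.0184 for DDX39A, 0.0249 and 0.0129 for DDX39B, and 0.0297 for ALYREF by quantiles alone. Genes called for both hairpins were 0 without the filter, 28 by median of ratios, 30 by quantiles, 134 among protein-coding genes and 3 with array weights; for shRNA1 0 without the filter, 2 with a pseudocount of 0.1, 24 protein-coding and 3 with weights; for shRNA2 0, 71 by quantiles, 421 protein-coding and 5 with weights; between the hairpins 269 protein-coding and 2343 with weights, which gave the scramble libraries 0.290 each. Of the 10 genes 1 was called for shRNA2 among protein-coding genes (RAN), where 421 of 9762 genes (4.31%) were called. Between the hairpins with weights 2 of the 10 were called (NXF1, adjusted p = 0.0372, and RAN, adjusted p = 0.0336, by limma). Calls were frequent in that fit, at 2343 of the 18162 tested genes. The replicate block gave 1, 0 and 0 genes called against scramble, and PABPC1 at -0.20 (adjusted p = 0.421); it called none of the 10. Deviations of same-numbered libraries correlated at 0.0122, -0.00768 and -0.15, so the numbers were not shown to pair libraries. With 1 FPKM added, PABPC4 over PABPC1 was 0.188 with shRNA1 and 0.175 with shRNA2, and XPO4 over XPO1 was 0.237, 0.205 and 0.234 with shRNA1, shRNA2 and scramble. Over the fits that each left out 1 library, genes called were 0 to 507 for both hairpins, 0 to 1 for shRNA1, 0 to 2418 for shRNA2 (534 without scramble replicate 2) and 0 to 1029 between the hairpins, and of the 10 genes 0 to 1 for both hairpins and 0 to 4 for shRNA2. In the same fits both-hairpin values ran from -0.0185 to 0.0584 for PABPN1, -0.251 to 0.0809 for DDX39A, -0.0954 to 0.0551 for DDX39B, -0.332 to 0.0267 for ALYREF and -0.0376 to 0.157 for XPO1. For shRNA1 they ran from -0.130 to 0.0766 for PABPC4, -0.0143 to 0.0626 for PABPN1, -0.235 to 0.0964 for DDX39A, -0.0750 to 0.0755 for DDX39B, -0.293 to 0.0664 for ALYREF, -0.0371 to 0.0595 for NXF1, -0.104 to 0.0914 for XPO1 and -0.00146 to 0.0339 for XPO4. For shRNA2 they ran from -0.0227 to 0.0542 for PABPN1, -0.266 to 0.0654 for DDX39A and -0.116 to 0.0347 for DDX39B, and between the hairpins from -0.0196 to 0.00279 for PABPN1, -0.115 to 0.0533 for DDX39A and -0.178 to 0.0192 for ALYREF. Counting error was at most 4.32% of a value; whether the lower depth of scramble replicate 1 bears on the spread of its group was not tested.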

Other observations

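The length behind DDX39B was not singular in its neighbourhood. Around the major histocompatibility complex on the short arm of chromosome 6, 33 of 38 protein-coding genes (86.8%) had a recovered length over 2 times the GENCODE v29 exon union, with a median ratio of 4.95. Of 600 protein-coding genes drawn from the rest of the genome, 23 (3.83%) did, with a median ratio of 1.03. FPKM levels of those 33 genes are therefore lower than on GENCODE lengths. The length cancels in their differences between groups, apart from the effect of the added 1 FPKM. The cause was not tested.

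Summed over their loci, PABPN1 with BCL2L2-PABPN1 had 56.7 to 59.6 RPM (reads scaled to the library total) and DDX39B with ATP6V1G2-DDX39B had 128 to 147 RPM over the 6 libraries.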
